A study of Mus musculus with 4 samples.

Results

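Transcripts of 10 genes of the tumour necrosis factor (TNF) superfamily were followed across the 4 libraries of an mRNA sequencing study in mouse bone marrow cells. The genes were taken by symbol: the ligands Tnf, Tnfsf9 and Tnfsf10, and the receptors Tnfrsf1a, Tnfrsf1b, Fas, Cd40, Ltbr, Tnfrsf9 and Tnfrsf14. They were chosen with earlier results of these data known. All 10 were found among the 37681 gene IDs of the count tables. The cells came from wild type C57BL/6 mice and were grown in DMEM with serum and L929 supernatant, which supplies M-CSF, a factor that drives macrophage growth. They were left unstimulated or received Pam3Cys4 at 100 nM for 5 h, a lipopeptide sensed by the receptor pair TLR2 and TLR1. Each state was measured in cells that the labels describe as without shRNA and in cells treated with an shRNA directed at lncRNA-COX2, a long noncoding RNA next to the gene for cyclooxygenase 2. Both libraries without shRNA have the letters EV in their titles, with no explanation, so what those cells received in place of the shRNA is not known. The animals' age, sex and number are not given, and 1 shRNA is named without its sequence. Each of the 4 groups has 1 library.

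TNF superfamily ligands are mostly trimeric proteins made at the cell surface, from which some are shed by proteases. Their receptors fall into those that carry a cytoplasmic death domain and can start apoptosis or necroptosis, such as TNF receptor 1 and Fas, and those that recruit TRAF adaptors directly and activate NF-kB and MAP kinases, such as TNF receptor 2, CD40 and 4-1BB. In macrophages, Tnf is an early target of NF-kB after Toll-like receptor ligation, and TNF acts back on the same cells through both of its receptors.

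The libraries held 47385277 to 65826838 gene reads over 16916 to 17267 genes with a read. All 9 macrophage markers listed reached 1 CPM in each library (CPM is reads scaled to a fixed library total), while Cd3e, Cd3d, Cd3g and Cd8a of T cells had no reads. The libraries with and without shRNA stood apart in other ways that touch every shRNA ratio below. The Y-linked genes Ddx3y, Kdm5d and Uty had 0 to 4 reads in the libraries without shRNA and 320 to 1116 in those with it, whereas the Y-linked Eif2s3y had 3 and 6 reads without shRNA and 0 with it. The summed level of 12 interferon-stimulated genes was 67.7 CPM unstimulated and 299 after Pam3Cys4 without shRNA, and 1438 and 5453 with it. Kdr, an endothelial marker, had 196 and 191 reads without shRNA and 600 and 745 with it. Summed over the 4 endothelial markers, the levels ran from 5.93 to 16.8 CPM, with 1 or 2 of the 4 at 0 in each library. The other 3 T cell markers had more reads with shRNA in at least 1 state: Lck had 53, 72, 197 and 433 reads (unstimulated and Pam3Cys4 without shRNA, then with it), Cd4 5, 6, 78 and 30, and Cd247 1, 13, 0 and 48. Summed over all 7, T cell markers were lowest in unstimulated cells without shRNA, at 1.13 CPM, and reached 4.13 CPM in unstimulated and 9.31 CPM in stimulated cells with shRNA. Of the macrophage markers, Mertk was 7.90 times higher with shRNA in unstimulated cells and 7.36 times after Pam3Cys4, and after Pam3Cys4 Fcgr1 was 4.12 times higher and Itgam at 0.495 of its level without shRNA. The summed macrophage markers were at 5984, 8491, 6832 and 8232 CPM. In the same order, the dendritic cell markers summed to 2.30, 1.86, 0.330 and 1.68 CPM. The fibroblast markers summed to 0.671, 0.614, 0.120 and 0.510 CPM. Both of these sums were lowest in unstimulated cells with shRNA. The part of these differences in the shRNA results was not tested. The level of lncRNA-COX2 was not analysed here. In these bulk samples fewer cells of a type and less RNA per cell cannot be told apart.

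Values below are given in the order unstimulated without shRNA, Pam3Cys4 without shRNA, unstimulated with shRNA and Pam3Cys4 with shRNA. Levels are in CPM after scaling of the libraries by the TMM method, and each ratio between libraries has a 95% interval that covers counting error only. A gene was counted as higher or lower between 2 libraries when the ratio was at least 2 or at most 0.5 and the interval left out 1. With 1 library per group no ratio could be checked against replicates. The only test was an additive model over all 4 libraries (edgeR quasi-likelihood, Benjamini-Hochberg adjusted), in which each factor takes the states of the other as repeats, so that its p-values do not cover the spread between cultures. The words rose and fell are kept for genes that passed this test at 0.05.

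The promoters of 4 members are shown because these genes had the patterns described below: the ligand with the largest level after stimulation, the receptor that passed the test for both factors with the larger changes, the receptor whose stimulation ratio turned direction, and the ligand read almost only with shRNA. Each run is the 250 bases before the gene's start in RefSeq (GRCm38.p6), read 5′ to 3′ on the gene's strand, with motif matches in capitals. They stand at chr17:35202008-35202257 (minus strand), chr4:145246871-145247120 (minus), chr4:154928078-154928327 (minus) and chr3:27316827-27317076 (plus).
Tnf: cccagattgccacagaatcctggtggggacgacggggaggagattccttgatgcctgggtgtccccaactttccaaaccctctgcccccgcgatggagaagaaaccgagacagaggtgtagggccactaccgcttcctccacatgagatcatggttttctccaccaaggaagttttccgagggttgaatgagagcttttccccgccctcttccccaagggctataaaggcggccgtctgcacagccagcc
Tnfrsf1b: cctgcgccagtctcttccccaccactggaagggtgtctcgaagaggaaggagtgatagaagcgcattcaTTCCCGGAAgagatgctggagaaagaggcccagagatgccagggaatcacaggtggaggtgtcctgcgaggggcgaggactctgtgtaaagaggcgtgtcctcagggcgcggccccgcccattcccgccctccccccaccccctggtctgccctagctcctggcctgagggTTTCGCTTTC
Tnfrsf14: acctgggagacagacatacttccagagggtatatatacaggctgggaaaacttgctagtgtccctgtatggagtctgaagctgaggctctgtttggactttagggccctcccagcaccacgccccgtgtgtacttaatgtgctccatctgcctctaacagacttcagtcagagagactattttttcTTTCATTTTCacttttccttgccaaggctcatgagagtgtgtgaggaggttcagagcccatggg
Tnfsf10: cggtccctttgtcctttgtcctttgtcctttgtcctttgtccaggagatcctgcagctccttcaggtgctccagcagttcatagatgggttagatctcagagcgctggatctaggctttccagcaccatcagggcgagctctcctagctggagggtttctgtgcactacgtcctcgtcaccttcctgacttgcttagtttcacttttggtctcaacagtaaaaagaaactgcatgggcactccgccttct
The motifs searched on both strands were GAAANNGAAA (the core that interferon regulatory factors bind), TTCNNNGAA (the STAT dimer site) and the NF-kB consensus. GAAANNGAAA was found in 2 of the 8 members with a promoter sequence, against 2.98% of 32851 promoters of this length. In Tnfrsf1b it ended at the base before the start (-10 to -1) and in Tnfrsf14 it lay at -64 to -55, in both on the strand opposite to the gene. TTCNNNGAA was found in 4 of the 8 (Tnfrsf1a, Tnfrsf1b, Fas and the second start of Tnfrsf9), against 7.02% of promoters. The NF-kB consensus was found at the second start of Tnfrsf9, as overlapping matches at -43 to -34 and -42 to -33, and 5.00% of promoters held it. No match was found in these windows of Tnf, Tnfsf10 and Ltbr.

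Most of these transcripts were higher after Pam3Cys4, by amounts that differed between genes. The members were chosen with earlier results of these data known. Their shares here and below therefore describe these 10 genes and not the superfamily. Among the other superfamily receptors with 5 CPM in the higher library, 0 of 5 were higher after Pam3Cys4 without shRNA and 1 of 8 with it. Receptors below this filter were not counted, among them Tnfrsf8 without shRNA, whose ratio is given further below. The members were counted also below it, so the counts of receptors and members are not alike. Without shRNA, 5 of the 10 members were at least 2-fold higher after Pam3Cys4 and 0 were lower, and the median of their log2 ratios was 1.75. Over all 9555 genes that passed the filter of 5 CPM in the higher library, 7.07% were higher and 6.51% lower, and the median was -0.00. With shRNA, 8 of the 10 were higher and 0 lower, and this median was 3.20, against 6.30% higher and 3.53% lower of 9601 genes. The filter was passed by 9 of the 10 members without shRNA and by 8 with it. The 2 that did not pass it with shRNA, Tnfrsf9 and Tnfsf10, are among the 8 higher ones. The balance over all genes depended on scaling: by library totals alone, 541 genes were higher and 898 lower without shRNA (main 676 and 622), and 494 higher and 466 lower with shRNA (main 605 and 339), with the median of all genes at -0.19 and -0.12. In the additive test, stimulation raised 7 of the 8 members tested, where 11.9% of 9559 genes rose and 10.9% fell (957 rose and 2023 fell by library totals, against 1138 and 1045). By library totals it raised 6 of the 8, without Ltbr. The 7 include Fas, which entered the test only through its stimulated libraries.

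**Figure D1:**
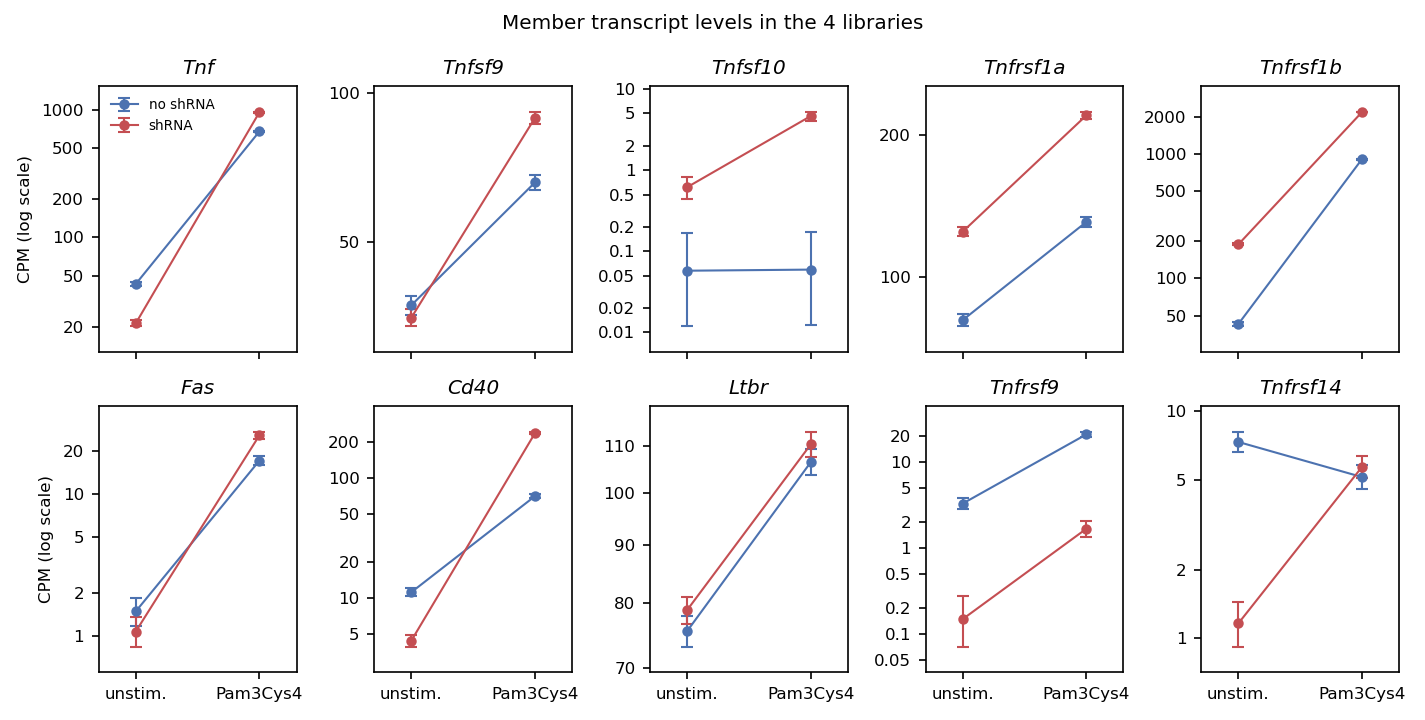
Levels of the 10 members in CPM on a log axis (a scale of its own in each panel), unstimulated and after Pam3Cys4, without shRNA (blue) and with shRNA (red). Each point is 1 library, bars are 95% intervals for counting error, and lines join the libraries of 1 shRNA state. The lines cross for Tnf, Tnfsf9, Fas, Cd40 and Tnfrsf14, run nearly together for Ltbr and stay apart for Tnfrsf1a, Tnfrsf1b, Tnfsf10 and Tnfrsf9.

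Tnf, the founding cytokine of the family, was read at 43.2, 677, 21.2 and 957 CPM. The unstimulated library with shRNA was the lowest and the stimulated library with shRNA the highest. Stimulation gave a ratio of 15.7 (95% interval 15.0 to 16.4) without shRNA and 45.1 (42.8 to 47.6) with shRNA. The second was 2.88 times the first (2.69 to 3.08). Unstimulated cells had 2.04-fold less Tnf with shRNA (1.90 to 2.18), and stimulated cells had 1.41 times as much (1.39 to 1.43). In the additive test Tnf rose with stimulation by a log2 change of 4.73 ± 0.43 (SE, adjusted p = 0.00665), while its shRNA term was -0.25 (adjusted p = 0.664) over opposite differences in the unstimulated and stimulated cells.

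Tnfsf9 encodes 4-1BB ligand, which antigen-presenting cells display to activated T cells. Its levels were 37.2, 66.0, 35.1 and 89.2 CPM, with both stimulated libraries above both unstimulated ones. The stimulation ratio was 1.77 (1.68 to 1.88) without shRNA, short of 2-fold, and 2.54 (2.42 to 2.67) with it. Stimulation raised it by a log2 change of 1.09 ± 0.17 (SE, adjusted p = 0.0186). The unstimulated libraries differed 1.06-fold, within counting error (0.997 to 1.13), and the stimulated library with shRNA was 1.35 times that without (1.29 to 1.41). On 14.9% of its exon bases Tnfsf9 overlaps Gm11110 on the other strand. The strand setting of the counting is not given. It is therefore not known whether reads there were counted for 1 gene of the pair or left out as matching both.

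Tnfsf10 encodes TRAIL, a ligand that can trigger apoptosis through death receptors and is known as an interferon-induced gene. It had 3, 3, 41 and 255 reads, so that nearly all of its reads lay in the libraries with shRNA. These correspond to 0.06, 0.06, 0.62 and 4.65 CPM, under the 5 CPM filter in every library, and the additive test did not take it. With shRNA the level after Pam3Cys4 was 7.55 times the unstimulated one (5.41 to 10.8), and without shRNA the ratio of 1.03 had an interval of 0.138 to 7.70 from 3 reads each. The library with shRNA was 10.7 times that without (3.41 to 54.0) in unstimulated cells and 78.2 times (26.5 to 382) after Pam3Cys4. The 12 interferon-stimulated genes were also higher with shRNA, 11 of 11 measured in unstimulated cells and 12 of 12 after Pam3Cys4. Their median log2 ratios were 4.87 and 4.11, and 7.00% and 9.00% of all genes were higher. The part of the interferon-stimulated genes in the Tnfsf10 result was not tested.

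Tnfrsf1a, the gene of TNF receptor 1, the death domain receptor found on most cells, was read at 80.8, 131, 125 and 221 CPM. Both Pam3Cys4 and the shRNA went with a higher level, and each ratio stayed under 2-fold. Stimulation ratios were 1.62 (1.56 to 1.68) without and 1.77 (1.72 to 1.82) with shRNA, and shRNA ratios were 1.54 (1.49 to 1.60) in unstimulated and 1.69 (1.64 to 1.74) in stimulated cells. It was called for both factors, rising by log2 0.76 ± 0.11 with stimulation (SE, adjusted p = 0.0172) and by 0.69 ± 0.11 with shRNA (adjusted p = 0.0189).

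Tnfrsf1b, the gene of TNF receptor 2, which binds TRAF2 and lacks a death domain, covered a wider range: 43.0, 910, 188 and 2175 CPM. Its 4 levels did not overlap, and the stimulated library with shRNA held the most reads of any member, 119394. Pam3Cys4 gave a ratio of 21.2 (20.3 to 22.1) without shRNA and 11.6 (11.4 to 11.8) with it, the second 1.83-fold smaller (1.74 to 1.91). The shRNA ratio was 4.37 (4.17 to 4.57) in unstimulated cells and 2.39 (2.36 to 2.42) after Pam3Cys4. In the additive test it rose by log2 3.97 ± 0.26 with stimulation (SE, adjusted p = 0.00394) and by 1.69 ± 0.24 with shRNA (adjusted p = 0.0120). Between both TNF receptors the order turned with Pam3Cys4 when expressed per kilobase of exon. Unstimulated cells without shRNA had 31.2 CPM per kb of Tnfrsf1a and 11.3 of Tnfrsf1b, and after Pam3Cys4 50.5 and 238. With shRNA both were close in unstimulated cells (48.2 and 49.1 CPM per kb, with overlapping intervals), and after Pam3Cys4 they were 85.2 and 569.7.

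Fas, the death receptor for Fas ligand, was low in unstimulated cells (1.50 and 1.08 CPM, from 78 and 72 reads) and reached 17.2 CPM after Pam3Cys4 without shRNA and 25.9 with it. Both stimulated libraries lay above both unstimulated ones, and the unstimulated pair differed 1.38-fold, with an interval of 0.992 to 1.93 that holds 1. Stimulation ratios were 11.5 (9.11 to 14.7) and 24.0 (18.9 to 30.8) without and with shRNA, a 2.08-fold difference (1.50 to 2.90). Fas rose with stimulation by log2 4.05 ± 0.31 (SE, adjusted p = 0.00515). It met the test's filter of 5 CPM in 2 libraries only through the stimulated libraries, where it was high, so this p supports nothing beyond the levels themselves. Its shRNA term of 0.17 did not pass (adjusted p = 0.706).

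Cd40 encodes the receptor through which helper T cells license macrophages and other antigen-presenting cells. Its levels were 11.1, 70.5, 4.38 and 237 CPM, so the libraries with shRNA held both the lowest and the highest value. Pam3Cys4 gave a ratio of 6.34 (5.81 to 6.94) without shRNA and 54.1 (48.2 to 60.9) with shRNA. The ratio between these, 8.53 (7.37 to 9.86), was the largest among the members that passed the filter. With shRNA the level was 2.53-fold lower in unstimulated cells (2.20 to 2.93) and 3.36 times higher after Pam3Cys4 (3.24 to 3.49). Stimulation raised it by log2 4.19 ± 0.84 (SE, adjusted p = 0.0309), and the shRNA term was 0.30 (adjusted p = 0.809).

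Ltbr, the receptor of lymphotoxin beta and LIGHT, varied least of the 10, at 75.5, 107, 78.8 and 110 CPM. Each stimulated library was above its unstimulated partner, with ratios of 1.41 (1.35 to 1.47) and 1.40 (1.35 to 1.45). The shRNA ratio was 1.04 in both states, with intervals of 1.00 to 1.09 and 0.999 to 1.08. Ltbr rose with stimulation by log2 0.49 ± 0.12 (SE, adjusted p = 0.0431), a call that was lost with library totals in place of TMM (0.34, adjusted p = 0.0937).

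Tnfrsf9, the gene of 4-1BB, was the member whose level was lower with shRNA in both states. Its reads numbered 171, 1051, 10 and 92, or 3.28, 20.8, 0.15 and 1.68 CPM, and both libraries without shRNA were above both with it. The shRNA level was 21.9-fold lower in unstimulated cells (11.6 to 46.4, under the 5 CPM filter) and 12.4-fold lower after Pam3Cys4 (10.0 to 15.5). Pam3Cys4 gave 6.34 times the unstimulated level without shRNA (5.39 to 7.50) and 11.2 times with shRNA (5.81 to 24.1, from 10 and 92 reads). These stimulation ratios differed 1.76-fold with an interval of 0.899 to 3.45, so a difference was not detectable at this depth. It was outside the additive test, which needs 5 CPM in 2 libraries. Its ligand, Tnfsf9, did not show this pattern, with shRNA ratios of 0.944 and 1.35.

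Tnfrsf14 encodes HVEM, a receptor for LIGHT and lymphotoxin alpha and a ligand of the inhibitory receptor BTLA. It was read at 7.33, 5.13, 1.16 and 5.68 CPM (382, 259, 77 and 312 reads), with the unstimulated library with shRNA apart from the other three. Without shRNA it was 1.43-fold lower after Pam3Cys4 (1.22 to 1.68), the only member below 1 in a stimulation comparison. With shRNA it was 4.92 times higher (3.82 to 6.40), and the second ratio was 7.03 times the first (5.23 to 9.44). In unstimulated cells the level was 6.34-fold lower with shRNA (4.95 to 8.21), and after Pam3Cys4 the shRNA ratio was 1.11 with an interval of 0.937 to 1.31. It passed the additive test for neither factor (log2 0.80, adjusted p = 0.434 for stimulation, and -1.18, adjusted p = 0.289 for shRNA).

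**Figure D2:**
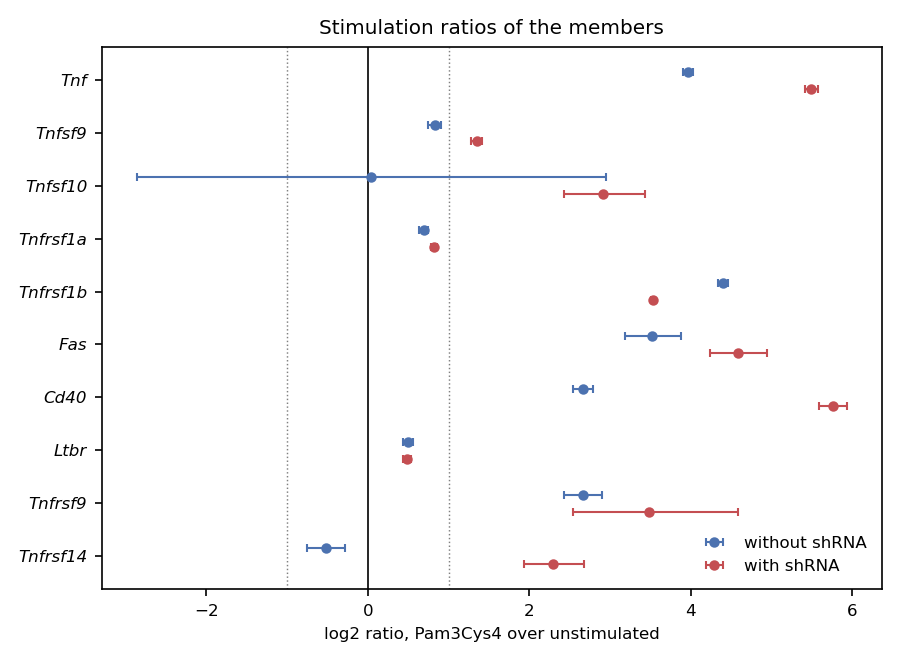
Log2 ratio of Pam3Cys4 over unstimulated for each member, without shRNA (blue) and with shRNA (red), with 95% intervals for counting error. Dotted lines mark 2-fold in each direction. The ratio was at least 2-fold larger with shRNA for Tnf, Cd40, Fas, Tnfrsf14 and, outside the filter, Tnfsf10. It was 1.43 times larger for Tnfsf9 and 1.09 times for Tnfrsf1a. For Tnfrsf9 it was 1.76 times larger, with an interval that held 1. It was smaller for Tnfrsf1b (log2 4.40 against 3.54) and nearly equal for Ltbr.

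Counted over the 10 members, the stimulation ratio was at least 2-fold larger with shRNA for 5 (Tnf, Cd40, Fas, Tnfrsf14 and, outside the filter, Tnfsf10) and at least 2-fold smaller for 0. Of 9857 genes, 1.94% were larger and 1.64% smaller by this measure, and the median log2 difference was 0.94 over the members and 0.02 over all genes. No test of this difference could be made, since the design leaves no replicate for an interaction. In unstimulated cells, 2 members were at least 2-fold higher with shRNA (Tnfrsf1b and, below the filter, Tnfsf10) and 4 lower (Tnf, Cd40, Tnfrsf14 and, below the filter, Tnfrsf9), where 7.00% of 9651 genes were higher and 4.82% lower. After Pam3Cys4, 3 were higher (Tnfrsf1b, Cd40 and, below the filter, Tnfsf10) and 1 lower (Tnfrsf9), where 9.00% of 9702 genes were higher and 5.58% lower. The median log2 shRNA ratio over the 10 members was -0.28 in unstimulated cells and 0.54 after Pam3Cys4, beside 0.02 and 0.05 over all genes. In the additive test the shRNA term rose for 2 of the 8 tested, Tnfrsf1a and Tnfrsf1b, and fell for 0, beside 12.3% rising and 8.66% falling over all genes (1171 and 828, or 1035 and 1260 by library totals). Stimulation and shRNA comparisons share libraries: a low unstimulated level with shRNA enters the shRNA ratio of unstimulated cells and the stimulation ratio with shRNA alike.

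**Figure D3:**
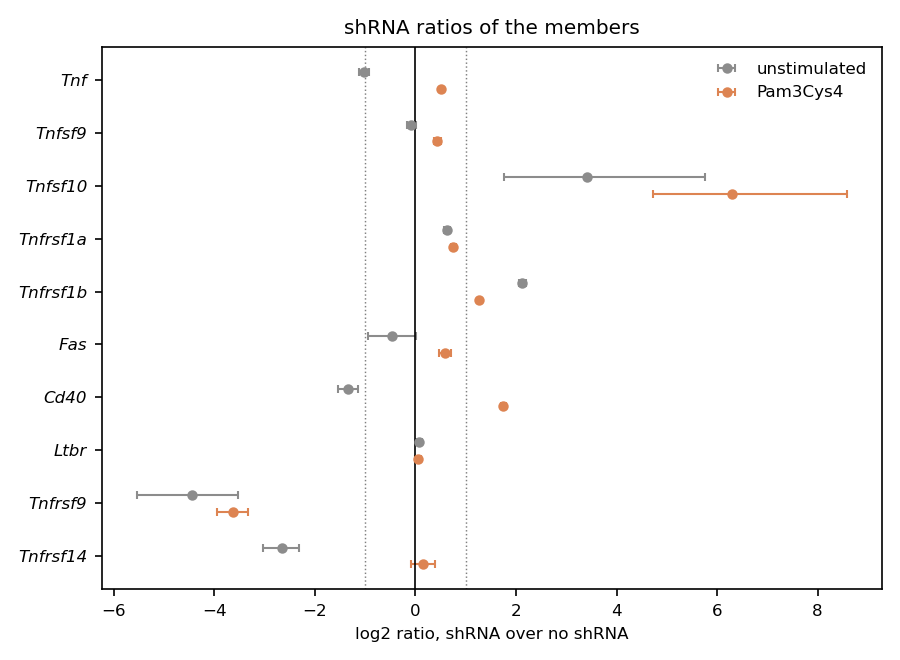
Log2 ratio of shRNA over no shRNA for each member, in unstimulated cells (grey) and after Pam3Cys4 (orange), with 95% intervals for counting error and dotted lines at 2-fold. Tnf and Cd40 lie below 0 in unstimulated cells (-1.02 and -1.34) and above 0 after Pam3Cys4 (0.50 and 1.75), and Tnfrsf9 lies below 0 in both.

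Compared per kilobase of exon, the members' order of abundance changed between groups. Without shRNA, unstimulated cells had Ltbr and Tnfrsf1a on top, with 32.1 and 31.2 CPM per kb and overlapping intervals, followed by Tnfsf9 (28.8), Tnf (26.4) and Tnfrsf1b (11.3). Tnfrsf14 (5.10), Cd40 (3.26), Tnfrsf9 (1.21), Fas (0.726) and Tnfsf10 (0.0109) followed. After Pam3Cys4 without shRNA, Tnf (413 CPM per kb) and Tnfrsf1b (238) led, and Tnfsf9 (51.2) and Tnfrsf1a (50.5) had overlapping intervals behind them. Fas (8.34) and Tnfrsf9 (7.64) also had overlapping intervals there. With shRNA and Pam3Cys4, Tnf was at 584 CPM per kb and Cd40 had come level with Tnfsf9 (69.6 and 69.2, overlapping), with Tnfrsf9 lowest at 0.616. Exon lengths came from another annotation than the counts, so orders between genes of close level depend on it.

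The genes with the most similar profiles over the 4 libraries were found by the Euclidean distance between centred log2 CPM among 9753 genes. Nearest to Tnf were Socs3 (distance 0.765), Fas (0.795) and Ccl12 (0.904). For Cd40 they were Fas (1.04), Tnf (1.05) and H2-M2 (1.21). Tnfrsf14 had Cx3cr1 (0.677), Dlgap2 (0.970) and Maf (1.01) nearest. Among the genes searched, Tnfsf10 had Zeb1 (0.943), Slc7a2 (1.07) and Tlr3 (1.16) nearest. Tnfsf10 itself met neither limit and had 3 reads in each library without shRNA. Genes as nearly absent there could not be found. With 4 points per profile this describes these libraries only.

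Other ligands of the superfamily were read at low levels. Of 14 others matched, only Tnfsf13b, which encodes the B cell survival factor BAFF, reached 5 CPM in any library, with 1.86, 0.653, 5.40 and 2.84 CPM. Tnfsf13b was 2.90 times higher with shRNA in unstimulated cells (2.31 to 3.67), and passed the filter only through that library, where it was high. Below the filter it was 4.35 times higher with shRNA after Pam3Cys4 (2.97 to 6.54). After Pam3Cys4 it was 2.85-fold lower without shRNA (1.90 to 4.37, below the filter) and 1.90-fold lower with it (1.57 to 2.31). Of 21 other receptors, 5 to 8 passed the filter in a comparison. Stimulation made 0 of 5 higher and 1 lower without shRNA, and 1 of 8 higher and 0 lower with it. Over all genes the shares were 7.07% higher and 6.51% lower without shRNA and 6.30% and 3.53% with it. The additive test found 0 of 7 changed with stimulation, with 3 risen (Tnfrsf21, Tnfrsf10b and, named after its values were seen, Tnfrsf12a) and 1 fallen (Relt) with shRNA. Over all genes in this test, 11.9% rose and 10.9% fell with stimulation, and 12.3% rose and 8.66% fell with shRNA. At 2-fold, 2 were higher and 1 lower of 6 with shRNA in unstimulated cells, and 3 higher and 1 lower of 8 after Pam3Cys4, beside 7.00% and 4.82% of all genes in the first state and 9.00% and 5.58% in the second.

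Among these receptors Tnfrsf21, the gene of death receptor 6, had 0, 0, 1765 and 1456 reads. Against a floor of 3 reads per library it was at least 460-fold higher with shRNA in unstimulated cells and at least 447-fold higher after Pam3Cys4, and with counting error in both libraries the lower 95% limits were 374 and 363. Tnfrsf10b, the gene of a receptor of TRAIL, was at 2.74, 2.87, 14.1 and 22.0 CPM, 5.15 (4.32 to 6.19) and 7.66 (6.44 to 9.16) times higher with shRNA. Tnfrsf21 and Tnfrsf10b reached 5 CPM only in the libraries with shRNA, so their calls in the additive test are no support beyond these levels. The transcripts of TRAIL and of Tnfrsf10b were both higher in both libraries with shRNA, and a link between them was not tested. Tnfrsf22 and Tnfrsf23, named after their values were seen, did not move alike. Tnfrsf22 was 1.59 and 3.18 times higher with shRNA, below 5 CPM in every library. Tnfrsf23 had shRNA ratios of 0.884 (0.740 to 1.06) in unstimulated cells and 1.07 (0.922 to 1.25) after Pam3Cys4. Relt fell with shRNA (27.6, 26.7, 13.4 and 9.78 CPM, log2 -1.24, adjusted p = 0.0103). Tnfrsf8, the gene of CD30, was at 0.173, 4.34, 0.60 and 7.12 CPM, with a stimulation ratio of 11.9 (8.56 to 16.9) with shRNA and of 25.1 (13.0 to 55.6) below the filter without it. Tnfrsf11a, the gene of RANK, is named after its values were seen: it was at 151, 57.3, 81.1 and 93.2 CPM, 2.64-fold lower after Pam3Cys4 without shRNA (2.53 to 2.75) and 1.15 times higher with it (1.11 to 1.19).

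Downstream of the receptors, 14 adaptors and ubiquitin ligases, 14 death and kinase signalling genes, 9 brakes and 6 shedding genes were listed. Of the adaptors, 3 were higher after Pam3Cys4 in each shRNA state, of 12 and 13 measured, and 0 lower, beside 7.07% and 6.30% of all genes higher. These 3 also rose in the additive test, where Traf4 fell and 11.9% of all genes rose. The median log2 stimulation ratio of the measured adaptors was 0.14 without and 0.41 with shRNA, that of the death and kinase signalling genes 0.10 and 0.22, and that of the brakes 0.33 and 0.50, beside -0.00 and 0.02 over all genes. Traf1, an adaptor of TNF receptor 2 and CD40 and itself an NF-kB target, was at 2.59, 98.7, 3.48 and 182 CPM, with ratios of 38.1 (32.1 to 45.6) and 52.4 (46.0 to 59.9), and entered the test only through the stimulated libraries. Tank had ratios of 2.73 and 2.84, and Birc3, which encodes the ubiquitin ligase cIAP2, of 2.47 and 2.67. With shRNA, Traf1 (log2 0.69, adjusted p = 0.0473) and Rnf31 (1.12, adjusted p = 0.00811) rose, and Traf4, named after its values were seen, fell (-0.97, adjusted p = 0.0144). These are 2 risen and 1 fallen of 12 tested, beside 12.3% and 8.66% of all genes. At 2-fold, 0 of 11 adaptors were apart with shRNA in unstimulated cells, and Rnf31 was higher and Traf4 lower of 13 after Pam3Cys4. Over all genes, 7.00% were higher and 4.82% lower in unstimulated cells, and 9.00% and 5.58% after Pam3Cys4. Rnf31 encodes HOIP, the catalytic subunit of the linear ubiquitin ligase.

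All 14 death and kinase signalling genes passed the filter, and 1 was higher after Pam3Cys4 without shRNA and 2 with it, again beside 7.07% and 6.30% of all genes. Cflar, the gene of the caspase-8 inhibitor cFLIP, had stimulation ratios of 3.37 (3.12 to 3.64) and 2.93 (2.76 to 3.10). Mlkl, the executioner of necroptosis, was at 8.31, 13.2, 19.8 and 53.3 CPM and was the only one of the 14 at least 2-fold apart with shRNA, 2.39 times higher in unstimulated cells and 4.04 times after Pam3Cys4. It rose with both factors (adjusted p = 0.0334 for stimulation and 0.0109 for shRNA). The shares of all genes apart with shRNA are those given for the adaptors. Chuk, which encodes IKK alpha, rose with stimulation (log2 0.57, adjusted p = 0.0395) and fell with shRNA (-0.60, adjusted p = 0.0366). Tab2, an adaptor of the kinase TAK1, passed for neither (adjusted p = 0.86 and 0.189).

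Of the brakes, 3 of 8 measured were higher after Pam3Cys4 without shRNA and 4 of 9 with it, beside the same shares. Tnfaip3, the gene of the ubiquitin editor A20, had ratios of 9.52 (8.83 to 10.3) and 11.9 (11.1 to 12.7), Nfkbia 5.18 and 7.28, and Tnip1 5.64 and 4.49, and all 3 rose in the additive test. With shRNA, Tnip1 rose (log2 0.64, adjusted p = 0.0340), as did Tax1bp1, named after its values were seen (0.50, adjusted p = 0.0480). These were 2 of 9 tested, where 12.3% of all genes rose. Nfkbie, the gene of IkB epsilon, was at 3.74, 4.28, 5.30 and 22.8 CPM, with 1.14 (0.937 to 1.39) without shRNA and 4.31 (3.83 to 4.86) with it. It passed the test for neither factor (adjusted p = 0.136 and 0.0989). Among the shedding genes, 3 of the 6 were measured. Rhbdf2, the gene of the iRhom2 cofactor of TACE, rose with stimulation (ratios of 5.30 and 4.54, adjusted p = 0.00298). Adam17, which encodes TACE, the protease that releases TNF and both TNF receptors, was at 187, 344, 198 and 357 CPM and also rose (adjusted p = 0.0126). Adam10, at 171, 108, 167 and 98.2 CPM, fell (adjusted p = 0.0191). None of the 3 passed for shRNA, where the adjusted p ran from 0.618 to 0.952. In this test 11.9% of all genes rose and 10.9% fell with stimulation, and 12.3% rose and 8.66% fell with shRNA.

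**Figure D4:**
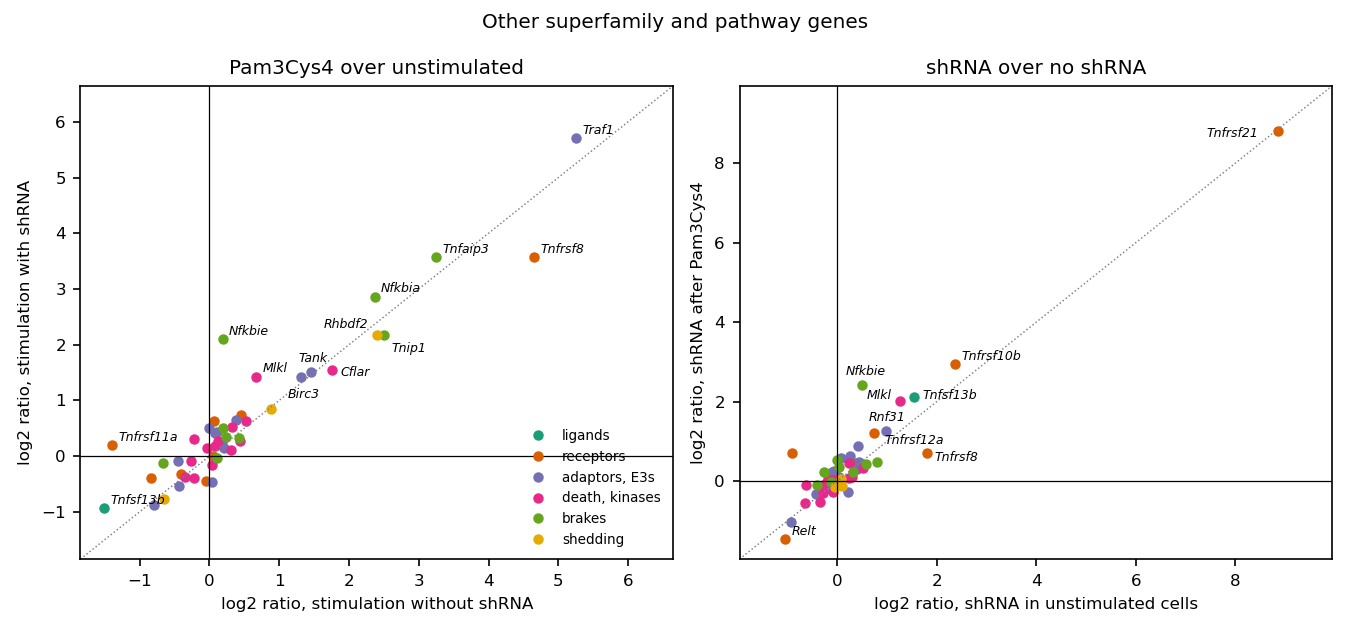
Log2 ratios of the 48 other superfamily and pathway genes with at least 5 CPM in a library, coloured by list. The left panel sets stimulation without shRNA (horizontal) against stimulation with shRNA (vertical), the right panel shRNA in unstimulated cells against shRNA after Pam3Cys4, and the dotted line marks equal ratios. Tnfrsf21 is drawn with a floor of 3 reads where it had 0, so both of its values in the right panel are lower bounds. Its horizontal value in the left panel comes from 0 reads in both libraries without shRNA and is not a measured ratio. Traf1, Tnfaip3, Nfkbia and Tnip1 lie high on both axes of the left panel, and Tnfrsf21 and Tnfrsf10b on both axes of the right panel.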

How the data were processed

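Messenger RNA of 4 groups, 1 library each, was sequenced as 50 bp reads, per the labels' protocols. The deposited tables hold whole-number counts of reads for each gene ID. CASAVA 1.8, TopHat (NCBIM37) and HTSeq are the tools that the submitters' processing notes name. Other tool versions, the annotation used and whether counting was stranded were not given in the sources used here. Lines naming no gene (32.5 to 34.4% of totals, mostly alignments to several places) were left out, so genes with close copies are undercounted. Of 37681 IDs, 32642 matched a symbol in GENCODE vM21, which is on another build and gave only names and exon lengths. The 10 members and 19 lists were chosen with earlier results of these data known.

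Scaling used TMM in edgeR 4.0.16 (factors 1.10, 0.972, 1.01 and 0.924; R 4.3.3). Pairwise ratios carry an exact conditional binomial 95% interval, counted at 5 CPM or more in the higher library. A 0 was set to a floor of 3 counts. The ratio of stimulation ratios needed 10 counts in each library and has a delta method interval. The edgeR quasi-likelihood F test used shRNA and stimulation as additive terms on genes with 5 CPM in 2 libraries, with 1 residual degree of freedom. Any interaction enters its error. Each SE is the log2 change divided by the square root of F. In simulated counts with 200 changed genes, the shRNA test called 93% of 2-fold and 98% of 4-fold changes. These counts had the same biological spread in every gene, no stimulation effect and no interaction. The shares therefore do not apply to genes such as Cd40 and Tnfrsf14, whose shRNA ratios differed between states. Calls among unchanged genes are not given here. Named beside the members were up to 4 genes per list with the largest ratio in any comparison, and others were chosen after their values were seen. Alternatives were library totals, DESeq2 1.42.0 size factors and its Wald test, a minimum of 1 CPM and no filter. Promoters are from RefSeq, with sequences for 8 of the 10 members.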

Additional observations from a re-analysis of the deposited data

Results flagged for a closer look

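For 3 members, effects of the same contrast pointed in opposite directions in the 2 states with both counting intervals leaving out 1, and with 1 library per group none of these differences was tested. For Tnf the log2 shRNA ratio was -1.02 in unstimulated cells and 0.50 after Pam3Cys4. For Cd40 it was -1.34 in unstimulated cells and 1.75 after Pam3Cys4. For Tnfrsf14 the log2 stimulation ratio was -0.52 without shRNA and 2.30 with shRNA. Fas and Tnfsf9 also had shRNA ratios below 1 in unstimulated cells and above 1 after Pam3Cys4, but the interval of the first held 1 for both.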

How the results depend on the processing

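No paired analysis was possible because each group has 1 library, and no replicate could be left out. Counts of genes depended on the filter. Without it, 2574 genes were at least 2-fold apart for stimulation without shRNA (main 1298), 2181 for stimulation with shRNA (main 944), 2800 for shRNA in unstimulated cells (main 1141, and 1725 at 1 CPM) and 3059 for shRNA after Pam3Cys4 (main 1414). The ratio of ratios gave 968 without a filter and 568 at 1 CPM (main 353), and the additive test 3870 for stimulation (main 2183) and 4044 for shRNA (main 1999). More genes enter by construction where the filter is lower. Of the values for members and named genes, 155 stayed within their counting interval or kept their call under DESeq2 size factors and 3 moved, and under library totals 82 did, 74 moved and the 2 others were the additive terms of Ltbr. With library totals, the additive shRNA term of Ltbr, called in neither, turned from 0.057 to -0.039. The DESeq2 Wald test, a minimum of 1 CPM and no filter each left all 16 additive terms of members (9 calls and 7 that did not pass) on the same side of the threshold and in the same direction. Depth limits Tnfsf10, Tnfrsf9, Fas and Tnfrsf14, which had 3 to 77 reads in their lowest library.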

Other observations

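Several further ligands and receptors were read at low levels, under 5 CPM in every library, and were chosen after their values were seen. Lta, the gene of lymphotoxin alpha, had 12, 113, 4 and 63 reads, and Ltb, the gene of lymphotoxin beta, had 66, 234, 48 and 88 (unstimulated and Pam3Cys4 without shRNA, then with it). Both had a higher CPM after Pam3Cys4 in each shRNA state and a lower one with shRNA in each stimulation state. Lta was 9.72 times higher after Pam3Cys4 without shRNA (5.35 to 19.4) and 19.1 times with it (7.11 to 72.3). Tnfsf13, the gene of APRIL, had 25, 20, 147 and 69 reads, and Tnfsf14, the gene of LIGHT, a ligand of both HVEM and the lymphotoxin beta receptor, had 35, 29, 196 and 65. Tnfrsf13b, the gene of TACI, a receptor of BAFF and APRIL, had 110, 57, 3 and 3 reads, 46.9-fold fewer with shRNA in unstimulated cells after scaling (15.6 to 231) and 20.6-fold fewer after Pam3Cys4 (6.72 to 103).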
